A study of Rattus norvegicus with 20 samples.

Results

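The comparison described here sets the mesenteric artery of untreated SHR/Izm rats against that of WKY/Izm rats with 1 kidney removed and a clip on the artery of the other, the 1-kidney 1-clip operation (1K1C). Its members were taken by the title of each sample: 4 SHR arrays and 4 1K1C arrays, 8 of the 20 in the series. The other 12 arrays are untreated WKY/Izm, WKY/Izm with 2 kidneys and 1 clip (2K1C) and untreated SHRSP/Izm (stroke-prone SHR), with 4 arrays each. All groups are labelled whole mesenteric artery and age 6 weeks, and the labels give 3 weeks for the WKY groups, operated or left without operation; they do not settle whether 6 weeks is the age at the operation or at sampling. The labels call the arrays biological replicates and do not say whether one rat or several gave each RNA, so the p-values measure the spread between these samples. The 4 SHR arrays lay on 1 slide and the 4 1K1C arrays on another, and no unoperated WKY array or operated SHR array enters the comparison, so strain, operation and slide cannot be told apart in it.

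SHR and WKY are inbred rat strains bred from a common Wistar stock, SHR by selection for high blood pressure. The clip operations raise blood pressure in a normotensive strain through the kidney: with the other kidney in place the model is known for an active renin-angiotensin system, and with it removed for retention of salt and water. A comparison of SHR with 1K1C WKY therefore sets an inherited form of hypertension beside an imposed one. The mesenteric artery feeds the gut through many small branches whose smooth muscle sets much of the resistance to blood flow. It runs in fat, and a whole-artery sample holds smooth muscle, endothelium, nerve endings, fibroblasts, blood cells and perivascular fat together.

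Each level below is the log2 processed Cy3 signal of a probe minus the log2 of that array's 75th percentile over all non-control spots, so 0 is the signal of a probe brighter than 75% of the spots. Across the 8 arrays that percentile ran from 574.5 to 1087 units, 66.5% to 71.7% of spots were well above background and 0 spots were saturated. The number of arrays, 4 in each group, limits the precision. Fixed markers showed arterial tissue with fat on every array: Myh11, the smooth muscle myosin, lay between 4.93 and 6.64 in SHR and between 2.91 and 5.92 in 1K1C, Pecam1 of endothelium between 3.1 and 3.71 and between 2.56 and 3.70, and Adipoq of fat cells between 5.78 and 7.30 and between 6.24 and 7.66. Of 30 such markers of 10 cell types, 23 were well above background on all 8 arrays, while Snap25 of neurons, Myh4 of striated muscle and Ms4a1 of B cells were so on none. The mean level of 6 neuron genes, which reached 4.08 in untreated WKY, lay between -2.24 and -1.12 in SHR and between -1.84 and -1.41 in 1K1C. Of these genes 0 passed, but 1 in each direction had groups without overlap: Gap43, a growth cone protein, was below every 1K1C array on all 4 SHR arrays (-2.55 to -1.89 against -1.78 to -0.31; difference -0.97, adjusted p = 0.247), and Rbfox1, a splicing factor of neurons and muscle, was above them (difference 1.59, adjusted p = 0.149; 1.77 and 0.0121 without the 3 arrays named next). The neuronal filament protein Prph overlapped, at -1.63 to -1.23 and -1.68 to -1.12, while the neurofilament Nefh, described below, passed.

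The arrays did differ in their share of muscle and fat signal, within both groups. The mean level of 14 contractile smooth muscle genes was 2.37, 4.24, 4.19 and 4.46 on SHR replicates 1 to 4 and 2.56, 0.61, 3.6 and 3.62 on 1K1C replicates 1 to 4. The mean level of 13 white adipocyte genes was 4.32, 2.93, 2.69 and 2.50 in SHR and 4.45, 4.6, 3.56 and 3.28 in 1K1C. SHR replicate 1 and 1K1C replicates 1 and 2 thus had low muscle and high fat signal, and the groups overlapped on both measures. Fewer cells of a type and less RNA per cell cannot be told apart in whole tissue. Beside the results named below, calls that were lost or gained without those 3 arrays are given.

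**Figure D1:**
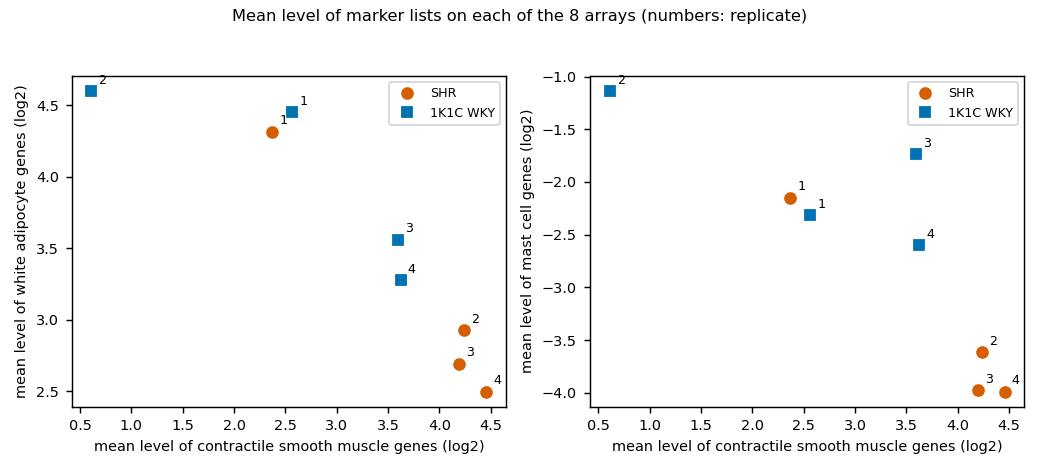
Mean level of smooth muscle marker genes (x axis, log2 relative to the array's 75th percentile) against that of white adipocyte genes (left) and mast cell genes (right), 1 point per array, numbered by replicate. SHR replicate 1 and 1K1C replicates 1 and 2 lie between 0.61 and 2.56 for smooth muscle genes, below the other 5 arrays at 3.6 to 4.46.

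Of 16331 genes tested, 145 passed an adjusted p of 0.05 in limma's moderated test with Benjamini-Hochberg adjustment (0.888% of the genes tested): 61 were higher in SHR and 84 lower (0.374% and 0.514%). At an unadjusted p under 0.05 there were 2373. In all 145 the 4 SHR values and the 4 1K1C values did not overlap, which was so for 6.96% of all genes. The size of the difference ran from 0.62 to 9.92 on the log2 scale, with a median of 1.48; 115 were at least 2-fold, and 109 had a gene symbol. With the deposited values left unscaled 65 genes passed, 52.3% of them higher in SHR against 42.1% here. The median difference over all genes, -0.05, became 0.089 with the unscaled values. Single arrays moved the count: it was 69, 83 and 73 without 1K1C replicates 1, 2 and 3, and 475, 61, 55 and 83 without SHR replicates 1 to 4. Without the 3 arrays of low muscle signal 265 genes passed, 89 of the 145 passed again, and all 145 kept their sign. A rule given with the methods picked 75 genes by name or size; 28 of them passed, 12 in each of the 8 fits with 1 array left out and 9 under every other processing setting that tested them. Without the 3 arrays 6 of the 28 lost their call: Mup4l3, Ankrd35, Dusp1, Acot3, Mcm2 and Postn.

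**Figure D2:**
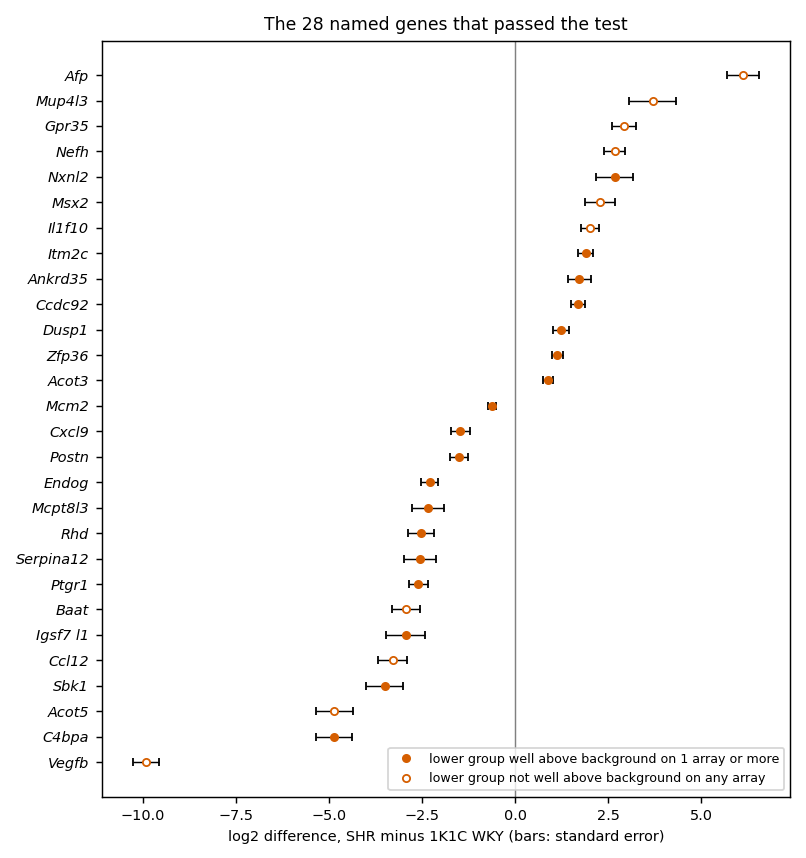
Log2 difference, SHR minus 1K1C WKY, of the 28 named genes that passed the test, with standard error bars (4 arrays in each group); open points mark genes whose lower group had 0 arrays well above background, so that the fitted value has no meaning as a fold. The differences run from -9.92 (Vegfb) to 6.12 (Afp), with 13 genes above 0 and 15 below.

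The probes of 4 genes the results turn on are shown as the array carries them, since each level rests on the binding of labelled RNA to these 60 bases. Each has at least 1 forward reading frame without a stop codon. They lie on the build the array files name, rn4: Endog at chr3:9187223-9187282 (+ strand), Gpr35 at chr9:92259098-92259157 (+), Ptgr1 at chr5:77010948-77011007 (- strand) and Nefh at chr14:85595648-85595707 (-). They are printed 5′ to 3′ in lower case, with no base marked.
Endog: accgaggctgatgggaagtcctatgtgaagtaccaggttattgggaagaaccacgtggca
Gpr35: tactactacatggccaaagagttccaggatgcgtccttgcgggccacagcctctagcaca
Ptgr1: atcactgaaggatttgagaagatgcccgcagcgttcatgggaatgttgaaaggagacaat
Nefh: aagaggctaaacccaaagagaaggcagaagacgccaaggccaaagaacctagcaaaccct

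Vegfb gave the largest difference in the comparison. It encodes vascular endothelial growth factor B, a ligand of the receptor Flt1 known for its part in coronary vessels and in fatty acid transport across endothelium. Its level was -7.74, -8.29, -8.13 and -7.56 on the SHR arrays, where it was well above background on none, and 2.38, 2.80, 1.58 and 1.19 on the 1K1C arrays. Every 1K1C array was thus bright and every SHR array at background. The signal was at least 494-fold lower in SHR (log2 difference -9.92 ± 0.35 SE, adjusted p = 1.37e-05). Such a bound sets the bright group's mean against the lowest signal that was well above background on the dim group's arrays, or the dim probe's own signal where that was higher. Vegfb has 1 probe here, at chr1:209657830-209657889. Whether the strains differ in sequence under this probe, or under those of the other genes named, was not tested.

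No other VEGF gene passed. Of 10 measured ligands and receptors, 1, Vegfb, was called lower in SHR and 0 were called higher, against 0.514% and 0.374% of all genes. Called or not, 3 had differences above 0 and 7 below. The median difference was -0.13, against -0.05 over all genes. The list's median turned to 0.0088 with unscaled values and to 0.014 without 1K1C replicate 1. Vegfa, the main angiogenic ligand, differed by -0.23 (adjusted p = 0.652), the lymphatic ligand Vegfc by 0.45 (adjusted p = 0.248), Flt1 by -0.21 and its sister receptor Kdr by 0.04. Mean Vegfb levels were 1.66 in untreated WKY, 0.68 in 2K1C and 1.13 in SHRSP, against -7.93 in SHR.

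Acot5 and Baat, of acyl-CoA and bile acid metabolism, were among the genes most reduced. Acot5, a peroxisomal acyl-CoA thioesterase, was at -7.97, -8.39, -8.23 and -7.67 in SHR, below the background criterion on all 4 arrays, and at -1.82, -2.77, -3.99 and -4.24 in 1K1C. That is at least 13.5-fold lower in SHR (log2 difference -4.86 ± 0.50, adjusted p = 0.00337), a call that held with each array left out and was lost after another background correction (adjusted p = 0.0729). Its neighbour Acot3, of the same enzyme family, was higher in SHR: -2.68, -2.54, -2.86 and -2.82 in SHR against -3.88, -3.62, -3.49 and -3.44 in 1K1C (difference 0.88 ± 0.15, adjusted p = 0.0334). The Acot3 call was lost when any 1 array other than SHR replicate 1 was left out, with an adjusted p of up to 0.142, and without the 3 arrays of low muscle signal (0.0908). Of 9 measured thioesterases 1 was called higher and 1 called lower, against 0.374% and 0.514% of all genes. Called or not, 2 had differences above 0 and 7 below, with a median of -0.33.

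Baat, which joins bile acids to glycine or taurine, was at least 7.55-fold lower in SHR (difference -2.93 ± 0.38, adjusted p = 0.0108); it was well above background on no SHR array and on all 4 1K1C arrays. That call was lost without 1K1C replicate 1 or SHR replicate 3, at an adjusted p of up to 0.0547. Of 17 measured fatty acid oxidation genes 14 had differences below 0 (57% of all genes did), with a median of -0.55. Fat signal was lower on most SHR arrays, as given above, and its part in these differences was not tested.

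Ptgr1 and Endog were lower in SHR under every setting tried. Ptgr1, prostaglandin reductase 1, which inactivates prostaglandins and leukotriene B4, was bright in both groups: 1.20, 0.13, 0.13 and 0.56 in SHR and 3.16, 3.40, 3.02 and 2.85 in 1K1C. The groups lay well apart, with a 6.09-fold lower signal in SHR (difference -2.61 ± 0.25, adjusted p = 0.00327). Endog, the mitochondrial endonuclease G that was named as a gene for heart mass in rat crosses, was -1.81, -1.96, -2.41 and -1.72 in SHR and 0.56, 0.72, 0.23 and -0.20 in 1K1C. It was 4.92-fold lower in SHR (difference -2.30 ± 0.24, adjusted p = 0.00337). Both passed in each of the 8 fits with 1 array left out and under each of 12 other processing settings. Endog was the 1 called gene among 19 measured candidates for blood pressure and cardiac traits in rat strains, against 0.888% of all genes called. The median of the list, which was chosen with earlier results of these data known, was -0.15. In that list Ephx2, the soluble epoxide hydrolase, differed by -0.82 (adjusted p = 0.404) and the fatty acid transporter Cd36 by -0.64 (adjusted p = 0.406).

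Several genes of immunity were lower in SHR. C4bpa, the alpha chain of the complement inhibitor C4b-binding protein, was -5.64, -8.20, -6.99 and -7.77 in SHR, where 1 array was well above background, and -2.27, -2.04, -2.15 and -2.67 in 1K1C (difference -4.87 ± 0.49, adjusted p = 0.00334). No other of the 17 measured complement genes passed; its partner chain C4bpb differed by -0.19, and the list median was -0.25. Ccl12, a chemokine for monocytes, was at least 8.02-fold lower (difference -3.29 ± 0.39, adjusted p = 0.00726), since no SHR array and every 1K1C array was well above background. Cxcl9, a chemokine for T cells, was -1.77, -2.92, -2.65 and -2.90 in SHR and -1.19, -0.83, -1.06 and -1.25 in 1K1C (difference -1.48 ± 0.26, adjusted p = 0.0442). It was the 1 called gene of the 19 measured members of the cytokine and chemokine list (median -0.40), against 0.888% of all genes called. That list does not hold Ccl12, or Il1f10, which is described below. The Cxcl9 call was lost in 7 of 8 fits with 1 array left out (adjusted p up to 0.152). Igsf7 l1, an immunoglobulin family gene, was lower by 2.95 ± 0.53 (adjusted p = 0.0492), and its call too was lost in 7 of those 8 fits (adjusted p up to 0.171). Other genes of immunity were called higher in SHR. Picked after their values were seen, these include Tlr3 (0.88, adjusted p = 0.0233), Nfkbia (1.12, adjusted p = 0.0428) and Pilrb1l2 (1.59, adjusted p = 0.00971).

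All 9 measured mast cell genes had differences below 0, with a median of -1.60, and 0 passed; over all genes 57% were below 0. Cpa3, the mast cell carboxypeptidase, was -0.83, -2.98, -3.48 and -3.39 in SHR and -1.57, 0.65, -0.35 and -1.59 in 1K1C, so that SHR replicate 1 overlapped the other group (difference -1.95 ± 0.69, adjusted p = 0.287). The mean of the list lay between -3.99 and -2.15 in SHR and between -2.60 and -1.14 in 1K1C, with SHR replicate 1 again the one that overlapped. Outside the list, Mcpt8l3, a granule protease of the mast cell and basophil family, passed at -2.34 ± 0.42 (adjusted p = 0.0462; up to 0.164 without 1 array, lost in 7 of 8 fits). Without the 3 arrays of low muscle signal the list median was -1.77 and Cpa3 passed (adjusted p = 0.0458). Macrophage genes had a median of -0.64, with 12 of 14 below 0 and none called. Lymphocyte genes had a median of -0.06, which was above 0 in 6 of the alternative fits, by up to 0.31.

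Of the red cell genes 1 passed. Rhd, a Rhesus blood group protein of the red cell membrane, was -4.80, -5.46, -4.98 and -5.02 in SHR and -3.08, -1.73, -2.02 and -3.32 in 1K1C (difference -2.53 ± 0.36, adjusted p = 0.0189). The groups were apart, but the call was lost without 1K1C replicate 3 or SHR replicate 2, 3 or 4 (adjusted p up to 0.0748). All 8 measured erythroid genes had differences below 0 (median -0.95), against 57% of all genes, with 1 called. The globin Hba-a3 differed by -0.71 (adjusted p = 0.473). Mean Rhd levels were -2.62 in untreated WKY, -3.10 in 2K1C and -3.16 in SHRSP, nearer to 1K1C at -2.54 than to SHR at -5.07. The amount of blood left in each sample was not tested.

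Among the remaining genes lower in SHR, Sbk1, a protein kinase with an SH3-binding domain, fell by 3.51 ± 0.49 (adjusted p = 0.0182), but a second probe of the gene gave -0.73. The call was lost without 1K1C replicate 2 or SHR replicate 2, 3 or 4 (adjusted p up to 0.0719). Serpina12, the adipokine vaspin, was lower by 2.56 ± 0.44 (adjusted p = 0.0392), and its call was lost in 6 of 8 fits (up to 0.142). Postn, the matrix protein periostin, was 0.49, 0.69, 0.27 and -0.20 in SHR and 1.66, 2.15, 2.07 and 1.38 in 1K1C (difference -1.5 ± 0.24, adjusted p = 0.0330; lost in 6 of 8 fits, up to 0.111, and at 0.0831 without the 3 arrays of low muscle signal). It was the 1 called gene of 24 elastic fibre and matricellular genes, against 0.888% of all genes called. The median of that list was 0.14 and turned to -0.15 without the 3 arrays of low muscle signal. None of the 16 collagens in the collagen list passed, with a median of 0.02 that turned to between -0.040 and -0.019 in 4 of the 8 fits with 1 array left out. Outside that list the collagen gene Col6a6, picked after its values were seen, passed and was lower by 1.13 ± 0.17 (adjusted p = 0.0248). Mean Postn levels were 1.06 in untreated WKY, 0.89 in 2K1C and 0.79 in SHRSP, below 1K1C at 1.81.

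Afp was the named gene with the largest rise. It encodes alpha-fetoprotein, the albumin relative of fetal plasma. It was -0.46, -2.09, -2.57 and -2.40 in SHR and -7.69, -8.17, -8.33 and -7.83 in 1K1C, where no array was well above background. The signal was at least 33.6-fold higher in SHR (difference 6.12 ± 0.43, adjusted p = 0.000766). Gpr35, a receptor of the gut and of immune cells that responds to kynurenic acid, was -3.67, -3.25, -3.13 and -4.17 in SHR and well above background on no 1K1C array, at -5.66, -6.88, -6.57 and -6.81 (at least 7.58-fold higher, difference 2.92 ± 0.32, adjusted p = 0.00456). Itm2c, a membrane protein of the BRICHOS family, was measured in both groups: -0.14, -0.04, 0.23 and -0.13 in SHR against -2.47, -1.93, -1.61 and -1.65 in 1K1C, 3.72-fold higher in SHR (difference 1.90 ± 0.21, adjusted p = 0.00456). Afp, Gpr35 and Itm2c passed in all 8 fits with 1 array left out and under every other setting that tested them.

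**Figure D3:**
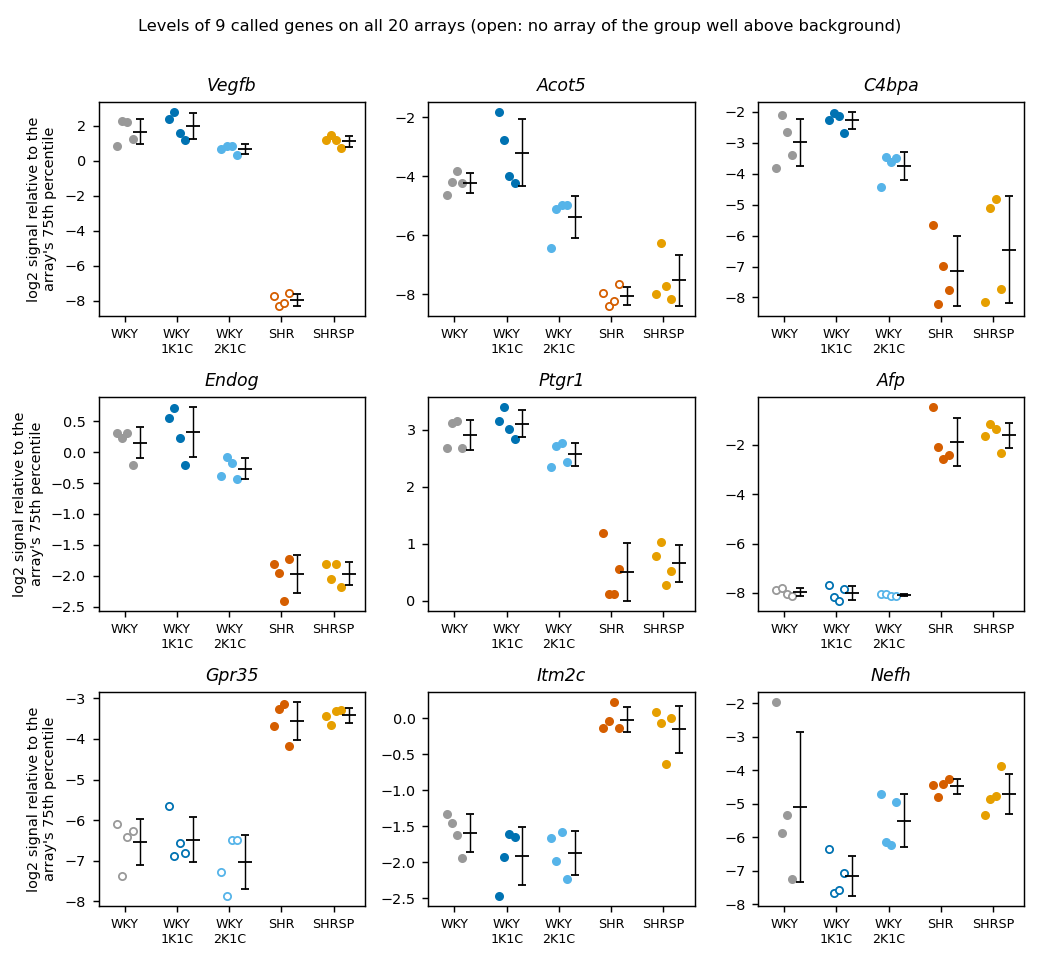
Level (log2 signal relative to the array's 75th percentile) of 9 genes that passed the test, on all 20 arrays by group; the bar beside each group is the mean with its standard deviation, and open points mark groups with no array well above background. For Vegfb all 4 SHR arrays lie at -7.56 or below, whereas Afp is high in SHR and SHRSP and at background in the 3 WKY groups.

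Further genes rose from a low base. Nefh, the heavy neurofilament of large axons, was -4.43, -4.79, -4.42 and -4.25 in SHR and -6.35, -7.64, -7.56 and -7.05 in 1K1C, there never well above background (at least 5.38-fold, difference 2.68 ± 0.28, adjusted p = 0.00388). In untreated WKY Nefh was -1.95, -5.86, -5.32 and -7.24, with replicate 1, the array of the highest neuron signal, far above the others, and in 2K1C it was -4.71, -6.13, -6.23 and -4.93. Il1f10, an interleukin 1 family cytokine, rose by 2.01 ± 0.23 (at least 2.60-fold, adjusted p = 0.00599). Ccdc92, a coiled-coil protein, rose by 1.69 ± 0.19 (adjusted p = 0.00567), although its second probe gave 0.29. These 3 calls held with each array left out. Nefh and Ccdc92 lost theirs when all 5 groups were fitted (adjusted p = 0.0812 and 0.158), and Il1f10 after another background correction (0.103) and in a fit of 4 groups.

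Mup4l3, named alpha2u globulin on the array and known as a pheromone carrier of male rat urine, was higher by 3.70 ± 0.64, at least 6.90-fold (adjusted p = 0.0405). Msx2, a homeobox factor of bone and vessel wall, was higher by 2.29 ± 0.40, at least 2.85-fold (adjusted p = 0.0422). Nxnl2, a thioredoxin relative of the retina, was higher by 2.67 ± 0.49 (adjusted p = 0.0495), with 2.30 for its second probe. Ankrd35, an ankyrin repeat protein, was higher by 1.73 ± 0.31 (adjusted p = 0.0468). Each of these 4 lost its call in 5 to 7 of the 8 fits with 1 array left out, with an adjusted p of up to 0.174. Mup4l3 and Ankrd35 also lost theirs without the 3 arrays of low muscle signal (adjusted p = 0.0908 and 0.0725).

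Contractile smooth muscle genes lay higher in SHR without any that passed. All 14 measured members had differences above 0 (43% of all genes did), with a median of 1.22. Lmod1, an actin nucleator of smooth muscle, was -1.19, 0.95, 0.87 and 0.93 in SHR and -1.40, -3.97, -0.32 and -0.12 in 1K1C, so that SHR replicate 1 overlapped 1K1C (difference 1.84 ± 0.86, adjusted p = 0.356; 1.13 for its second probe). Without the 3 arrays of low muscle signal the median was 0.68, again with 14 of 14 above 0, and Lmod1 passed (difference 1.14, adjusted p = 0.0294). White adipocyte genes were the mirror of this, with 13 of 13 below 0 and a median of -0.75, which was -0.67 without the 3 arrays. Acly, which makes cytosolic acetyl-CoA for lipid synthesis, gave the largest difference of that list at -1.48 ± 0.62 (adjusted p = 0.335). Brown fat genes had a median of -0.99 with 6 of 6 below 0. The uncoupling protein Ucp1 was 3.09 on 1K1C replicate 3 and between -6.03 and -0.88 on the other 7 arrays.

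Markers of neighbouring organs were also checked. Of 12 measured pancreas and gut enzyme genes 11 were above 0 (median 1.53), against 43% of all genes, and 0 passed. Cela2a gave the largest difference of the list, 1.94 ± 0.61, and passed without the 3 arrays of low muscle signal (2.11, adjusted p = 0.0371). Prss1, trypsinogen of the pancreas, was 1.11, 3.56, 1.98 and 3.19 in SHR and -0.93, 1.63, 1.16 and 0.35 in 1K1C, so that SHR replicate 1 lay below 1K1C replicates 2 and 3 (difference 1.91, adjusted p = 0.280). The pancreas lies along the mesenteric vessels, and its part in any difference was not tested. Mesothelial genes stood high on SHR replicate 1 and 1K1C replicate 2, with mean levels of -0.31 and -0.97 against -3.59 or lower on the other 6 arrays. Genes of neurons had a median of -0.18 and those of sympathetic neurons 0.70, with 0 of 6 called in both; Th, the first enzyme of catecholamine synthesis, differed by -0.29 (-0.75 to 0.16), and by 0.010 without the 3 arrays of low muscle signal.

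Genes of oxidant handling lay mostly below 0, with none called. This held for 7 of 7 measured NADPH oxidase genes (median -0.51), 15 of 19 glutathione S-transferases (median -0.43) and 14 of 18 antioxidant enzymes (median -0.23), against 57% of all genes. Srxn1, which restores oxidised peroxiredoxins, came nearest to the threshold at -1.29 ± 0.26 (adjusted p = 0.0744). Of 19 interferon-response genes 18 were below 0 (median -0.23) and 0 passed.

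No listed gene of the main systems that set vessel tone passed. With 0.888% of all genes called, lists this short can be expected to hold few or 0 called genes. Ptgr1, called above, is not among the listed genes. Of 15 measured renin-angiotensin genes 0 passed, with a median of -0.21. Agtr1b, an angiotensin II receptor, came nearest: -1.99, -2.70, -2.23 and -2.78 in SHR and -3.76, -3.46, -3.47 and -3.10 in 1K1C, without overlap (difference 1.02 ± 0.22, adjusted p = 0.0880). The main vascular receptor Agtr1a differed by -0.23 (95% interval -0.81 to 0.36) and the converting enzyme Ace by 0.45 (-0.12 to 1.03). Agt, the precursor, which fat also makes, differed by -1.24 (-2.38 to -0.11; adjusted p = 0.324) and passed without the 3 arrays of low muscle signal (-1.10, adjusted p = 0.0484). Cma1, a mast cell chymase that forms angiotensin II, gave -1.62 ± 0.55 (adjusted p = 0.265). These intervals show the precision that 4 arrays a group allowed: for Agtr1a they include changes of up to 0.81 on the log2 scale.

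Of 4 measured endothelin genes none passed: Edn1, the peptide, differed by -0.41 (-1.05 to 0.24) and its muscle receptor Ednra by 0.94 (0.26 to 1.63; adjusted p = 0.238). Without the 3 arrays Ednra passed (0.91, adjusted p = 0.0425). Nos3, the endothelial nitric oxide synthase, differed by 0.60 (0.02 to 1.18; adjusted p = 0.339), and Pde5a, which breaks down cyclic GMP in smooth muscle, by 1.45 ± 0.61 (adjusted p = 0.337). Of 19 calcium channels and pumps 17 were above 0 (43% of all genes were), with a median of 0.50 and 0 called. Kcna5, a voltage-gated potassium channel, was -3.57, -1.38, -1.54 and -1.36 in SHR and -4.59, -7.33, -3.16 and -3.18 in 1K1C (difference 2.60 ± 0.94, adjusted p = 0.291; 1.75 and 0.00978 without the 3 arrays). In each group Kcna5 was lowest on the arrays of low smooth muscle signal, and the part of muscle content in these differences was not tested.

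Among 20 listed immediate early genes, which answer stimuli within minutes, 18 were above 0 (median 0.73), against 43% of all genes. Of the list 2 passed, both higher, against 0.374% of all genes. Dusp1, a phosphatase that switches off MAP kinases, was -0.51, -0.07, -0.08 and -0.63 in SHR and -1.88, -1.66, -1.08 and -1.56 in 1K1C (difference 1.22 ± 0.21, adjusted p = 0.0407; up to 0.151 and lost in 6 of 8 fits, and 0.0952 without the 3 arrays of low muscle signal). Zfp36, which destabilises cytokine messages, was -4.47, -4.17, -4.27 and -4.27 against -5.19, -5.41, -5.41 and -5.71 (difference 1.14 ± 0.15, adjusted p = 0.0107; lost without SHR replicate 2 or 3, up to 0.0565). Of 17 listed genes known to respond to glucocorticoids 15 were above 0 (median 0.82) and 1, Dusp1 again, passed. These counts cover the listed genes only. Arc, an immediate early gene outside them that was picked after its values were seen, was higher by 1.34 ± 0.23 (adjusted p = 0.0392). The heat-shock gene Hspa1b was 0.59, 3.77, 4.15 and 2.88 in SHR and -1.59, -2.56, 0.25 and 0.22 in 1K1C, apart but widely spread (difference 3.77 ± 0.89, adjusted p = 0.116; 3.37 and 0.0161 without the 3 arrays).

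All 24 measured cell cycle genes had differences below 0 (median -0.57), against 57% of all genes. Of them 1 passed, and 10 had groups that did not overlap, against 6.96% of all genes. The called member was Mcm2, a helicase subunit that opens DNA for replication: -2.55, -2.62, -2.42 and -2.48 in SHR against -1.98, -1.92, -1.82 and -1.88 in 1K1C. The difference was small, -0.62 ± 0.11 (adjusted p = 0.0495), and the call was lost in each of the 8 fits with 1 array left out (up to 0.20) and without the 3 arrays of low muscle signal (0.0898). Mean Mcm2 levels were -2.44 in untreated WKY, -1.82 in 2K1C and -2.12 in SHRSP, so that untreated WKY lay with SHR and 2K1C with 1K1C. Tk1, thymidine kinase, and Gins1, of the replication complex, were picked after their values were seen; they were lower by 1.11 ± 0.20 (adjusted p = 0.0491) and 0.98 ± 0.15 (adjusted p = 0.0245). Mcm7, likewise picked, is another subunit of the Mcm2 helicase and was higher in SHR, 0.74, 0.82, 1.04 and 1.17 against -0.51, -0.42, -0.42 and -0.35 (difference 1.37 ± 0.13, adjusted p = 0.00327). LOC364767, described as Mcm7-like and placed on chromosome 17, was higher by 1.29 ± 0.12, and signal of near-identical copies may not be separable.

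**Figure D4:**
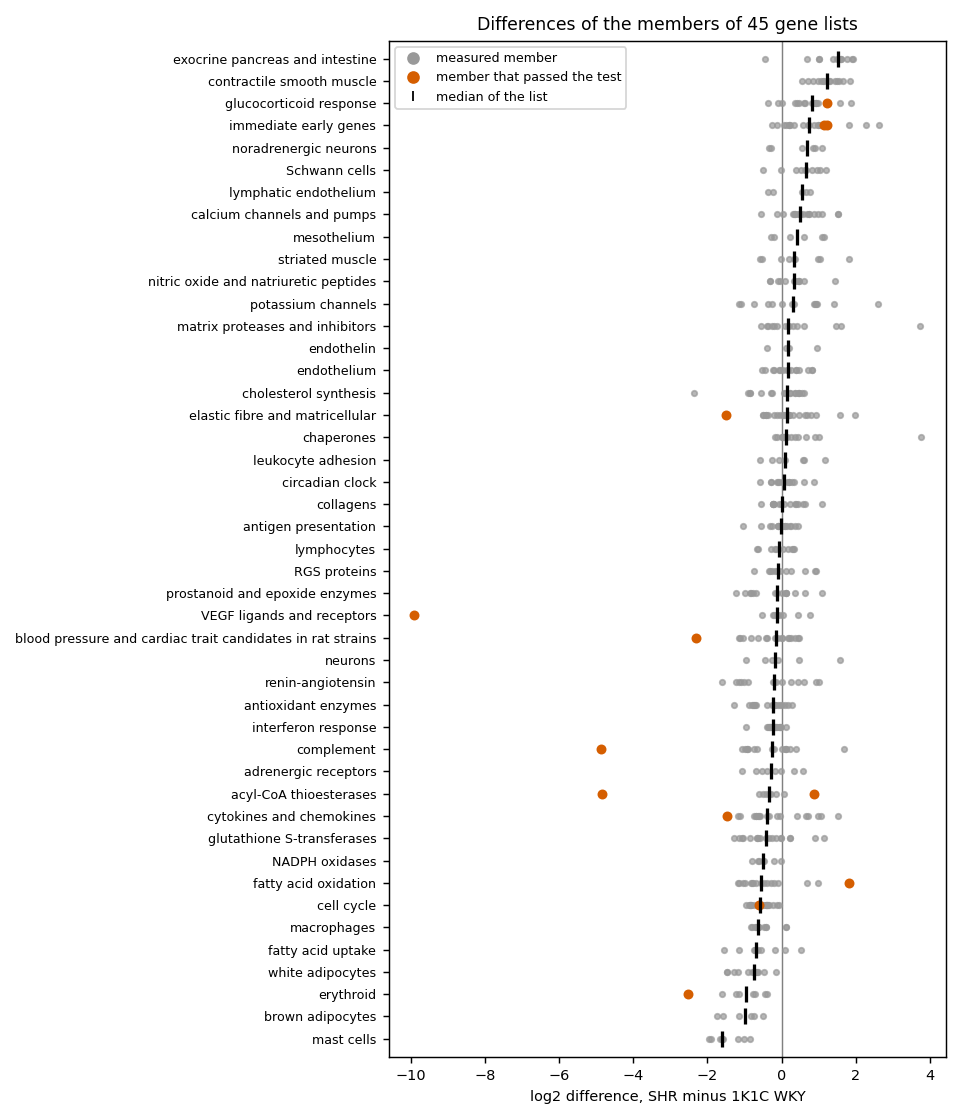
Log2 difference, SHR minus 1K1C WKY, of every measured member of 45 gene lists, ordered by the median of the list (black bar); orange points passed the test. Smooth muscle genes lie wholly above 0 (median 1.22) and mast cell genes wholly below (median -1.60), both with 0 called, while single members such as Vegfb (-9.92), C4bpa (-4.87) and Acot5 (-4.86) stand far from the rest of their lists.

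Some called genes lay close together on a chromosome, with opposite signs in most of these clusters. Of 128 called genes placed on a numbered chromosome or X, 36 lay within 1 Mb of another, in 14 clusters, and 11 of these clusters held both higher and lower genes. These counts are a description. How many neighbours, or clusters of both signs, genes drawn at random would give was not computed. In 1 cluster, on chromosome 8, the 2 probes start 126 bases apart and may belong to 1 locus. The clusters described next were picked after their values were seen. On chromosome 14, Afp lay 99.7 kb from LOC360919, which the array describes as similar to alpha-fetoprotein. Afp was higher by 6.12 and LOC360919 lower by 3.15 ± 0.21 (adjusted p = 0.000667), at -5.14, -5.93, -5.91 and -5.75 in SHR and -2.73, -2.68, -2.17 and -2.56 in 1K1C. On chromosome 6, Acot3 and Acot5 lay 28.5 kb apart with opposite signs. On chromosome 8, Med17 of the Mediator complex was lower by 1.65 ± 0.16 and the centrosome gene Cep295, 55.4 kb away, higher by 1.59 ± 0.18 (adjusted p = 0.00327 and 0.00456). Endog and the torsin Tor1b (higher by 1.57 ± 0.12, adjusted p = 0.00111) lay 836 kb apart on chromosome 3.

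Among the largest rises were transcripts with no gene symbol in common use. RGD1311103, described as an oocyte-expressed protein homolog, and an uncharacterised transcript with a probe that starts 126 bases after it on chromosome 8 were higher by 6.88 ± 0.50 and 6.10 ± 0.26 (at least 83.1-fold and 30.2-fold; adjusted p = 0.000792 and 3.41e-05). Both were well above background on all 4 SHR arrays and on no 1K1C array. LOC502684 on chromosome 3 followed, higher by 5.04 ± 0.45 (at least 22.6-fold, adjusted p = 0.00216). By chromosome the share called ran from 0.175% on X, 1 of 571 genes, to 1.75% on chromosome 17, 8 of 458.

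The same kind of contrast can be read on 8 other arrays, SHRSP against 2K1C WKY, which share no array with the comparison above; SHR and SHRSP do share a slide, and the strains are related, SHRSP being derived from SHR. There, 171 of 16388 genes passed (1.04%), 94 higher and 77 lower in SHRSP. Of 15987 genes tested in both, 47 passed in both in the same direction, 22 higher and 25 lower, which is 35.6% of the 132 called here and 29.8% of the 158 called there; 0 passed in opposite directions. Afp was higher by 6.46 in SHRSP against 2K1C (adjusted p = 3.16e-06), Gpr35 by 3.6 (0.000676) and Itm2c by 1.72 (0.00573). Ptgr1 was lower by 1.92 (adjusted p = 0.00191) and Endog by 1.70 (0.000773). Of the genes in clusters, Med17 fell by 1.87 (0.000213), LOC360919 by 3.58 (0.00762) and Tor1b rose by 1.5 (0.00353). Tissue content differed within these 8 arrays too. Neuron genes had a mean level of 1.28 on 2K1C replicate 1, against -1.24 or lower on the other 2K1C arrays. Lymphocyte genes had 1.24 on 2K1C replicate 4 and 0.18 on SHRSP replicate 4, against -2.77 or lower on the rest. The part of such content in these calls was not tested.

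The difference between both contrasts was then tested itself, in a fit of the 16 arrays. Of the genes tested in SHR against 1K1C, 25 passed (0.153%). Vegfb differed most, by -10.37 (adjusted p = 2.02e-09), since SHRSP against 2K1C gave 0.45 (adjusted p = 0.437). Agtrap, whose product attaches to the main angiotensin receptor and promotes its removal from the cell surface, was the reverse: it was 0.14, -0.01, 0.01 and 0.27 in SHR and 0.08, 0.10, 0.08 and 0.10 in 1K1C (difference 0.01 ± 0.12), against -4.74 in SHRSP minus 2K1C (difference of the differences 4.75, adjusted p = 2.02e-09). Hba-a3 and Samd14 had the same shape, with -0.71 and -0.13 here and -6.94 and -3.45 there (adjusted p of the difference 0.000177 and 0.000121). Pxmp4, a peroxisomal membrane protein, Serhl2, a serine hydrolase, and Aldh1a7, an aldehyde dehydrogenase, were named after their values were seen: they were lower in SHR by 2.30, 2.04 and 2.18 and differed by 0.16, 0.49 and 1.45 in the other contrast (adjusted p of the difference 0.00187, 0.00267 and 0.00328).

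**Figure D5:**
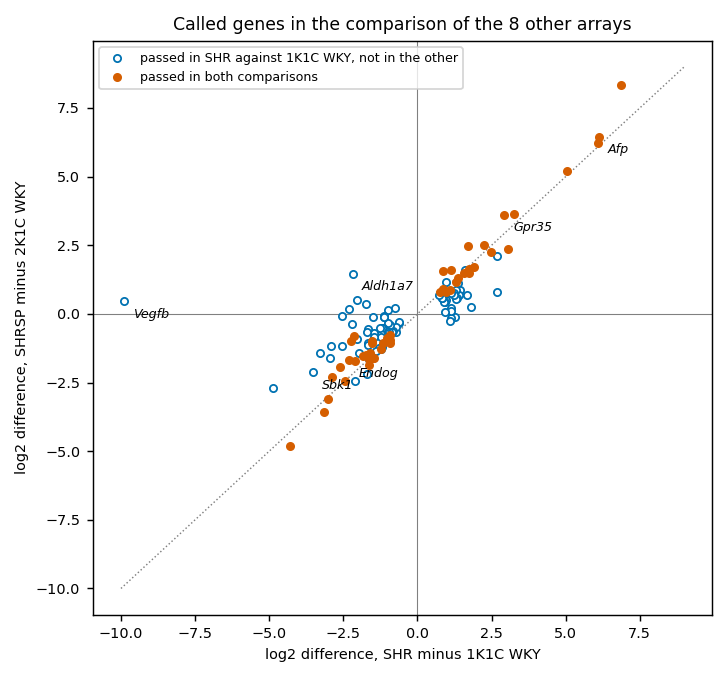
Log2 difference of SHR minus 1K1C WKY (x axis) and of SHRSP minus 2K1C WKY (y axis) for the genes called in the first whose same probe was tested in both. Filled points passed in both and the dotted line marks equal differences. Vegfb lies far from that line at -9.92 and 0.45, while Afp lies near it at 6.12 and 6.46.

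The 3 groups outside the fit show where the called genes stand in the series, as a description with no test, since these genes were chosen by their difference between the other groups. The untreated WKY mean was nearer to the 1K1C mean than to the SHR mean for 134 of the 145, and the 2K1C mean was so for 127. The SHRSP mean was nearer to that of SHR for 122. The exceptions include Mcm2, for which untreated WKY lay nearer to SHR, and Vegfb, for which SHRSP lay with the WKY groups.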

How the data were processed

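Total RNA was labelled with Cy3 and hybridised to 1-colour Agilent arrays of 60-base probes, and spot intensities were extracted by the authors; the submitters' processing notes name Agilent Feature Extraction, version 10.7.3.1. The deposited processed intensity was corrected for spatial trends across the array, with spatial and multiplicative detrending on and a surrogate in place of very low values, per the file headers; the deposited value table holds those same intensities. From them the log2 intensity minus each array's 75th percentile was taken, control and outlier spots were left out, and 12 missing probe values were left missing. Probes entered the fit if all 4 arrays of either group passed the scanner software's background criterion, and the brightest kept probe stood for its gene. Of 30367 probes 61.7% matched a RefSeq symbol.

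The 8 arrays were fitted with limma 3.58.1 (R 4.3.3; lmFit and eBayes, two-sided), and a gene was called at a Benjamini-Hochberg adjusted p of 0.05. The fit was tested on simulated data. Reported ± values are standard errors unless stated, and intervals are 95% intervals of the fit. The genes picked were 12 called genes a direction, by size, that had a symbol, groups without overlap and a brighter group above background on all 4 arrays; up to 4 called members of each of the 45 lists, or the largest difference where none was called; and a set of names. Members, lists and names were chosen with earlier results of these data known. The test of the difference of the differences and the fit without 3 arrays were added after the data were seen. The alternatives were other normalizations, background correction, filters, probe summaries, sample sets, variance models, array weights, a block on the replicate number and leaving out each array; their effect is given at the end. Blood pressure was not analysed here. Some genes that the rule picked are not reported here.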

Additional observations from a re-analysis of the deposited data

Results flagged for a closer look

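In groups of 4 arrays, 14 of the 150 groups checked held an array far from the other 3 by Dixon's test, where chance flags about 1 in 20 groups. SHR replicate 1 was the array in 11 of them. It stood below the other SHR arrays for genes of muscle and other types: the potassium channel Kcna5 at -3.57 (the nearest other array was at -1.54), Lmod1 at -1.19 (0.87), skeletal actin Acta1 at -2.84 (-0.96), Pde5a at -2.02 (-0.33), the endothelin receptor Ednra at -2.62 (-1.55) and the circadian repressor Nfil3 at -0.942 (-0.484). It stood above them for genes of fat, macrophages and lipid metabolism: the adrenergic receptor Adrb3 at 4.31 (2.59), complement C1qc at 1.26 (-0.465), prostaglandin E synthase Ptges at -1.62 (-3.30), Gstz1 at 3.21 (1.75) and the cholesterol enzyme Dhcr7 at 0.531 (-0.844). Without the 3 arrays of low muscle signal, this array among them, Dhcr7 (lower in SHR) and Nfil3 (higher) gained a call (adjusted p = 0.02645 and 0.0194).

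Among the 1K1C arrays, replicate 1 was apart for the calcium pump Atp2b1 at -2.97, against 1.51 on the nearest array, and for keratin Krt18 at -4.31 against -0.566. Replicate 3 was apart for Ucp1 at 3.09, against -2.68. The second probe of Atp2b1 gave a difference of 0.30 between the groups where the first gave 1.51.

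The tested difference between SHR minus 1K1C and SHRSP minus 2K1C passed for Vegfb (-10.37), Hba-a3 (6.23), Agtrap (4.75) and Samd14 (3.32). For Vegfb SHR was the group apart, and for the other 3 genes it was SHRSP, which lay far below 2K1C.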

How the results depend on the processing

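Of the recomputed values of the 75 picked genes, 1313 kept direction and side of the threshold, 171 lost and 64 gained the call, and 9 changed sign. The 145 calls of SHR against 1K1C became 65 with the deposited values unscaled, 89 without a filter on dim probes, 88 with probes above background on all 8 arrays, 274 in a fit of 5 groups, 237 in a fit of 4 groups, 3422 with array weights and 265 without the 3 arrays of low muscle signal (144 higher, 121 lower). With 1 array left out they ran from 55 to 475. The 171 calls of SHRSP against 2K1C became 1804 unscaled (1746 higher, 58 lower) and 360 with array weights, and ran from 78 to 240 (without SHRSP replicate 2, without 2K1C replicate 4). The 47 shared calls became 27 unscaled, 28 without a filter, 30 above background on all 8 arrays, 84 and 85 with 5 and 4 groups, and 133 with weights, and ran from 25 to 54 (without SHR replicate 2, without 2K1C replicate 4). The replicate block gave 110 calls, 66 of them among the 145, and 30 shared calls. Same-numbered arrays did not deviate together (correlations 0.256, -0.539, 0.201 and 0.182), and none correlated best with its own number. No pairing by number was thus seen, though so few correlations cannot exclude one. Sign changes were near 0: Agtrap was -0.0729 with weights and -0.00182 without the 3 arrays (-0.0423 to 0.050 with 1 array left out), Samd14 0.00513 after normexp and 0.0111 unscaled (-0.276 to 0.0231), Prph 0.0402 unscaled and Th 0.0104 without the 3 arrays. Of 810 list medians 32 changed sign. The causes were not tested. A probe not well above background has only a bound, which held for 11 called genes in SHR and 13 in 1K1C.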
